A study of Caenorhabditis elegans with 15 samples.

Results

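The comparison set the transcriptome of body-wall muscle of Caenorhabditis elegans on day 12 of adulthood against that of young adults. It rests on 4 of the 15 libraries of the series, 2 for each age, and covers all 14831 genes of the deposited count table. In both ages the animals carried a transgene in which the myo-3 promoter, active in body-wall muscle, drove an SL1 spliced leader RNA that bears a sequence tag (strain label Pmyo-3::tag:SL1(G16C)). Day 12 animals had been kept on plates with 400 µM fluorodeoxyuridine, a DNA synthesis inhibitor that stops the production of progeny, and young adults, counted as day 1, are not stated to have received it. Age and drug therefore cannot be told apart here. All animals were fed OP50 bacteria on plates at 20 °C. RNA came from whole worms, and the tag, not dissection, set the tissue.

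In nematodes many mRNAs receive a short leader at their 5' end by trans-splicing, and a leader made only in one cell type marks the RNAs made there. Tagged RNA was pulled down with a biotin probe, copied into full-length cDNA from the poly(A) tail, amplified by nested PCR, fragmented and sequenced. Body-wall muscle moves the worm with obliquely striated sarcomeres, in which thin filaments of actin, tropomyosin and troponin slide along thick filaments of myosin, and dense bodies and M-lines hold both to the cell membrane. In ageing worms this muscle is known for a loss of sarcomere order and of movement.

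The day 12 libraries held 464359 and 1684401 gene reads and the young adult libraries 992136 and 2289349. The design text calls most replicates of the series biological. The p-values measure only the spread between replicate libraries, shared over all 14 SL1-tag libraries. Besides the 4 compared, these are libraries of dauer, L1 and L2 muscle, of neurons at both ages and of multiple tissues. L1 and L2 muscle have 1 library each and add nothing to the spread. The shared spread thus comes in part from other stages and tissues. edgeR's coefficient of variation between replicates was 1.59 for day 12 muscle, 0.539 for young adult muscle and 1.09 in the shared fit. The shared spread is thus smaller than that of the day 12 libraries. At least 1 read fell on 5203 and 4322 genes on day 12 and on 5925 and 6042 genes in young adults. Day 12 replicates differed much: Spearman's rho across genes, which are not independent replicates, was 0.606 between them and 0.895 between the young adult replicates. Of 802 genes with at least 100 reads in day 12 replicate 1, 25 had no read in replicate 2, and of 1629 such genes in replicate 2, 86 had none in replicate 1. In young adults these numbers were 0 of 1247 and 3 of 2077. Body-wall muscle markers were read in every library, with summed levels of 7603 and 16673 CPM on day 12 and 34537 and 36091 CPM in young adults over 10 of 14 markers listed in the table (CPM, the usual depth-scaled count, here with edgeR's TMM scaling). No read was listed in the 4 libraries for the defining muscle genes hlh-1, pat-10, unc-15, unc-54 and unc-89. Markers absent from the table could not show a read, so this does not measure their expression. Of myo-3 itself, the promoter gene and a myosin heavy chain, 0 and 35 reads (0 and 21.9 CPM) were found on day 12, against 117 and 133 reads (150 and 80.1 CPM) in young adults, a log2 fold change of -3.33 ± 1.81 (SE) that did not pass (edgeR adjusted p = 0.324).

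Transcript length moved with the difference between the ages. Among 3539 genes of at least 20 mean CPM, the median log2 fold change of day 12 over young adult muscle was 1.17 for the 394 genes with a spliced length of up to 500 nt. It was -0.13 for the 1210 genes of over 500 and up to 1000 nt, -0.93 for 915 genes up to 1500 nt, -1.67 for 542 genes up to 2000 nt, -1.87 for 345 genes up to 3000 nt and -1.88 for 133 longer genes. Each day 12 library showed the slope on its own, while the ratio of the young adult replicates and the age difference in neurons lay between -0.13 and 0.24 in all 6 length classes. These genes were picked by their level in muscle, and the neuron libraries held only 57104 to 282171 gene reads. The neuron median was 0 in the classes up to 500 nt and up to 1000 nt, and a gene unread in neurons also fits to 0. How far unread genes flattened the neuron values was not tested. Across these genes Spearman's rho between length and log2 fold change was -0.436 in muscle and 0.0715 in neurons, a description over genes that share libraries and depth. Called genes lie along the same slope: 25 were higher and 0 lower in the shortest class, and 1 was higher and 22 lower between 1500 and 2000 nt. With a smooth length trend removed from every library, a setting chosen after the slope had been seen, 56 genes were called, 40 of them also called without it. What made the difference depend on length was not tested. Calls that did not hold with the trend removed are named as such below.

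**Figure D1:**
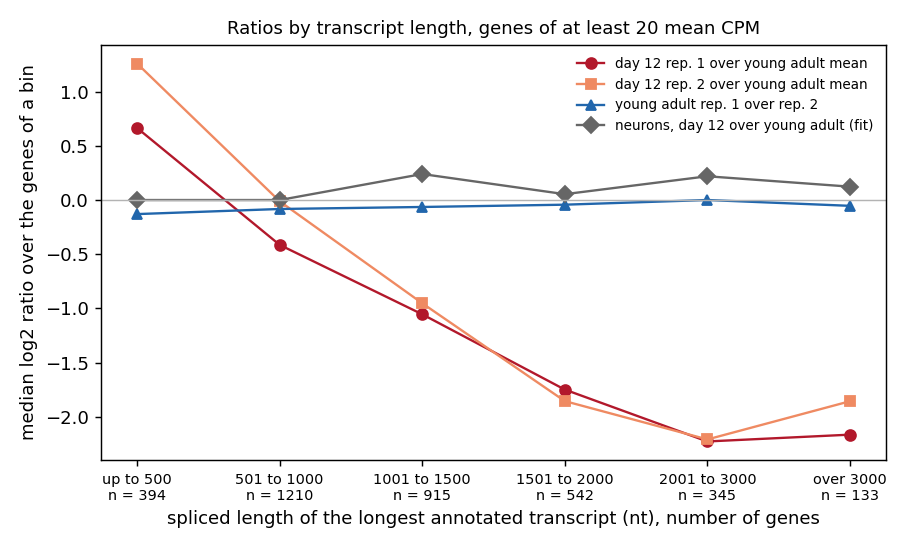
Median log2 ratio (vertical axis) of genes in 6 classes of spliced length (horizontal axis, nt, with the number of genes) for each day 12 muscle library over the young adult mean, for the young adult replicates, and for day 12 over young adult neurons. Both day 12 muscle libraries go down with length, from 0.66 and 1.26 in the shortest class to -2.16 and -1.86 in the longest, and the other 2 lines stay between -0.13 and 0.24.

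edgeR's quasi-likelihood test, with the spread shared over all 14 SL1-tag libraries, covered 8954 genes, of which 7659 were read in the 4 libraries. At an adjusted p under 0.05 it called 139 genes (1.55%), 54 higher (0.603%) and 85 lower (0.949%) on day 12, and 1724 genes had an unadjusted p under 0.05, 612 of them higher (6.83%) and 1112 lower (12.4%). The median log2 fold change of all read genes was -0.60, or -0.37 with genes that have no read at one age set to their bound. With DESeq2's size factors the first became 0.03 and the calls 74 higher and 34 lower, so the balance of directions depends on the scaling. Of the 52 called genes that the naming rule picked, none turned direction under any setting tried. Of the 54 higher genes 36 had no young adult read, and of the 85 lower ones 26 had no day 12 read. A fold against an age without reads is given as a bound, computed with 3 counts over the 2 libraries of that age. Such bounds cover counting error only, because reads copied by PCR and not marked by identifiers may stem from the same molecule. Leaving out either young adult library ended every call (0 genes called, 1056 and 976 at an unadjusted p under 0.05), and a fit to the 4 libraries alone called 0 (1491 at an unadjusted p under 0.05).

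Genes of the thin filament were the part of the sarcomere with called members. Of 16 tested genes 3 were lower (0.949% of all tested genes were) and 0 higher. act-1 (WBGene00000063, chromosome V, 11081052 to 11082415, plus strand in WBcel235), a muscle actin, had 569 and 2235 CPM on day 12, against 44623 and 44160 CPM in young adults. The ages lie far apart, and the log2 fold change was -4.98 ± 0.58 (edgeR adjusted p = 0.00637, or 0.0339 with the length trend removed). The near-identical actin genes act-3 and act-4 are not in the table, so the split of reads among these copies is uncertain. tnt-2, a troponin T that links troponin to tropomyosin, stood at 90.7 and 71.3 CPM on day 12 and at 2885 and 2564 CPM in young adults (-5.07 ± 0.71, adjusted p = 0.0167), and its call was lost without the length trend (adjusted p = 0.0582). unc-27, a troponin I that holds contraction in check, stood at 584 and 650 CPM on day 12 and at 5248 and 6484 CPM in young adults (-3.25 ± 0.56, adjusted p = 0.027, or 0.0474 without the trend). In bulk RNA of this kind fewer tagged muscle cells and less RNA per cell cannot be told apart.

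Other thin filament genes ranged widely. lev-11, the tropomyosin gene, had 8.92 and 25.6 CPM on day 12 and 163.3 and 190.8 CPM in young adults, with an adjusted p of 0.12. unc-87, a calponin-like protein that binds actin filaments, had 4164 and 5284 CPM on day 12 and 8852 CPM in each young adult library, with an adjusted p of 0.297. tni-1, another troponin I, did not pass and had very different day 12 replicates: 189 and 1353 CPM on day 12, against 2603 and 2809 CPM in young adults. Over the list, the libraries did not overlap in 11 genes that were lower and 2 that were higher, where 37.8% and 14.8% of all read genes did so. The summed level was 8737 and 18027 CPM on day 12 and 79077 and 80426 CPM in young adults. In young adults act-1 had the most of it. The list's median log2 fold change minus that of all genes was -1.2, and without day 12 replicate 1 it was -0.053.

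Thick filament genes had no called member. Of 9 tested, 0 passed in either direction, where 1.55% of all tested genes did, so 0 does not set this list apart. At an unadjusted p under 0.05, 2 were lower, where 12.4% of all tested genes were. mlc-2, a regulatory myosin light chain, had 2553 and 10216 CPM on day 12 and 16060 and 16656 CPM in young adults (-1.36 ± 0.55, adjusted p = 0.23). For this gene day 12 replicate 1 lay further from the young adults than replicate 2 did. unc-22, which encodes the giant kinase twitchin, was at 50.5 and 0 CPM on day 12 and at 347 and 254 CPM in young adults. The list's summed level was 3204 and 11023 CPM on day 12, against 17191 and 17643 CPM.

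Attachment and excitation genes likewise had 0 called members of 26 and 25 tested, where 1.55% of all tested genes were called. In the dense body and M-line list, lim-9, an M-line LIM domain protein, had the smallest p, with 46.1 and 75 CPM on day 12 and 485 and 583 CPM in young adults (-3.13 ± 0.76, adjusted p = 0.0719). The list's median log2 fold change was -2.33 (-2.13 with bounds), where that of all read genes was -0.60. With the length trend removed it was -0.56, where that of all read genes was 0.14. Over genes of 500 to 1500 nt it was 0.04 for 5 members, where that of all read genes was 0.57. The list thus stayed below all genes in both settings, by -0.70 and -0.52. Among genes of the calcium store and of excitation, sca-1, the pump that returns calcium to the sarcoplasmic reticulum, had 11.9 and 4.38 CPM on day 12 and 246 and 283 CPM in young adults (-5.05 ± 1.13, adjusted p = 0.0726). csq-1, which encodes calsequestrin, the calcium store's binding protein, stood at 92.2 and 148 CPM on day 12 and at 375 and 567 CPM in young adults (adjusted p = 0.218). That list's median was -1.50 (-1.24 with bounds), and -0.11 with the length trend removed, where that of all read genes was 0.14. Its median minus that of all genes was -0.89, and without day 12 replicate 1 it turned to 0.26.

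Of 79 cytosolic ribosomal protein genes, 14 were lower on day 12 and 0 higher, where 0.949% of all tested genes were lower. At an unadjusted p under 0.05, 45 were lower, where 12.4% of all tested genes were. rpl-3 (WBGene00004414, chromosome III, 3867854 to 3869587, plus strand) had 384 and 506 CPM on day 12 and 4729 and 4617 CPM in young adults (-3.39 ± 0.37, adjusted p = 0.00637, or 0.0468 with the length trend removed). rpl-16 stood at 1365 and 1628 CPM on day 12 and at 6401 and 6787 CPM in young adults (-2.14 ± 0.26, adjusted p = 0.00708). rpl-5 had 415 and 375 CPM on day 12 and 3148 and 3363 CPM in young adults (-3.04 ± 0.39, adjusted p = 0.00765, or 0.0739 with the trend removed), and rpl-1 had 485 and 761 CPM against 4082 and 4053 CPM (-2.71 ± 0.36, adjusted p = 0.00912). In none of these genes did the ages overlap. The other called members were rpl-2, rpl-4, rpl-6, rpl-7, rpl-10, rpl-18, rpl-19, rps-0, rps-4 and rps-6. With the trend removed rpl-1, rpl-3, rpl-16 and rpl-19 kept their calls and the other 10 of the 14 did not. At the other end, rps-28 had 2471 and 13745 CPM on day 12 and 5989 and 7570 CPM in young adults, and rps-19 had 3891 and 3675 CPM on day 12 against 3686 and 3888 CPM.

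Ribosomal protein genes of different length differed in this. Of 36 genes with up to 500 nt 0 were called and the median log2 fold change was -0.80. Among 32 genes of over 500 and up to 800 nt 7 were lower, with a median of -1.21, and of 11 genes of over 800 nt 7 were lower, with a median of -2.001. The summed level of the shortest class was 82726 and 203860 CPM on day 12 and 214030 and 240290 CPM in young adults, so that replicate 2 alone came close to the young adults there. In the longest class it was 13899 and 11974 CPM on day 12, against 40433 and 47403 CPM. Spearman's rho between length and log2 fold change over the 79 genes was -0.600 in muscle and 0.0213 in neurons, given as a description of genes that share libraries. It was -0.304 for day 12 replicate 1 and -0.656 for replicate 2 over the young adult mean, and 0.384 for young adult replicate 1 over replicate 2, so that these genes also sorted by length between libraries of the same age. With the length trend removed, 17 members were called lower, 13 of them in the shortest class. None of these 13 was called without that step.

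**Figure D2:**
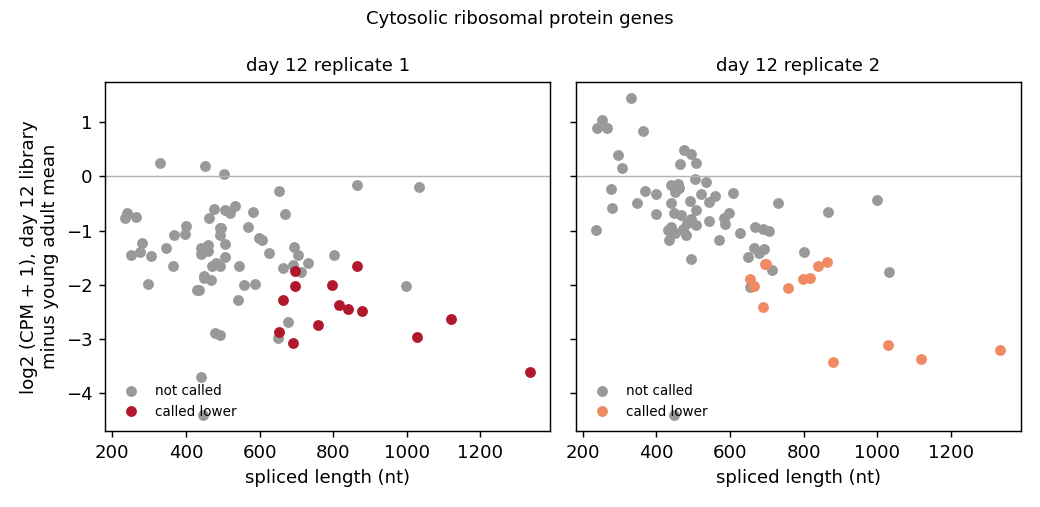
Log2 (CPM + 1) of each cytosolic ribosomal protein gene in day 12 replicate 1 (left) and replicate 2 (right), minus its young adult mean, against spliced length in nt, with the 14 called genes in colour. Both panels slope down with length, and in replicate 2 many genes of up to 500 nt lie at or above 0.

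Of 42 genes in the translation factor list 4 were lower and 0 higher, where 0.949% of all tested genes were lower. At an unadjusted p under 0.05, 21 were lower, where 12.4% of all tested genes were. eef-1A.2 (WBGene00001169, chromosome X, 7823654 to 7825769, plus strand), which encodes the factor that brings aminoacyl-tRNA to the ribosome, had 89.2 and 65 CPM on day 12 and 2452 and 2221 CPM in young adults (-4.92 ± 0.51, adjusted p = 0.00637, or 0.0319 with the length trend removed). Its near-identical copy eef-1A.1 is not in the table under that name, so reads of the pair are uncertain. inf-1, the initiation factor helicase eIF4A, stood at 199 and 193 CPM on day 12 and at 875 and 962 CPM in young adults (-2.23 ± 0.44, adjusted p = 0.0406, lost with the trend removed at 0.474). eif-2A (E04D5.1 in the table) had no day 12 read and 230 and 206 CPM in young adults, at least 165-fold lower. eftu-2, named for its likeness to elongation factors but a helper of the spliceosome, had no day 12 read either and 203 and 166 CPM in young adults, at least 140-fold lower. Both lost the call with the trend removed (adjusted p = 0.0882 and 0.0846).

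The CCT chaperonin, a ring of 8 subunits that folds actin and tubulin, had a low summed level on day 12: 299 and 328 CPM on day 12, against 4826 and 4863 CPM. The libraries did not overlap in any of the 8 genes, each lower on day 12, where 37.8% of all read genes were so. Each had an unadjusted p under 0.05, where 12.4% of all tested genes were lower at that level. Of the 8, 3 were called lower, where 0.949% of all tested genes were. cct-5 had 98.1 and 170 CPM on day 12 and 2344 and 2195 CPM in young adults (-4.08 ± 0.54, adjusted p = 0.00912). cct-1 had 1.49 and 3.75 CPM on day 12 and 537 and 586 CPM in young adults (-7.60 ± 1.27, adjusted p = 0.0244), and cct-4 had 0 and 10 CPM against 312 and 407 CPM (-5.99 ± 1.24, adjusted p = 0.0469). The median of the list was -5.02 (-4.81 with bounds). Its genes are long, with a median of 1929 nt, and with the length trend removed 0 passed and the median was -3.04, against 0.14 over all genes. tba-1, a tubulin gene whose product the chaperonin folds, had 120 and 161 CPM on day 12 and 1395 and 1575 CPM in young adults (-3.40 ± 0.41, adjusted p = 0.00658, or 0.114 with the trend removed). The closely related tba-2 stood at 224 and 249 CPM on day 12 and at 953 and 1024 CPM in young adults (adjusted p = 0.046, or 0.778 with the trend removed), and was named after its values were seen.

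Among 45 tested heat shock and DnaJ genes, 1 was lower (0.949% of all tested genes were) and 0 higher. This was daf-21 (hsp-90 in the current annotation), which encodes Hsp90, with 172 and 229 CPM on day 12 and 1987 and 1957 CPM in young adults (-3.30 ± 0.56, adjusted p = 0.026, or 0.347 with the length trend removed). hsp-1, an Hsp70 chaperone of the cytosol, missed the threshold with 110 and 217.5 CPM on day 12 and 2308 and 2181.6 CPM in young adults (adjusted p = 0.0604). The small heat shock gene hsp-12.2 had 23.8 and 22.5 CPM on day 12 and no young adult read, with an adjusted p of 0.0807.

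Of 34 proteasome genes 2 were lower (0.949% of all tested genes were) and 0 higher. The libraries did not overlap in 30 genes, all lower on day 12, where 37.8% of all read genes did so. At an unadjusted p under 0.05, 23 were lower, where 12.4% of all tested genes were. pas-2, a subunit of the core particle, had 63.9 and 65 CPM on day 12 and 559 and 758 CPM in young adults (-3.35 ± 0.68, adjusted p = 0.0459). pas-5, another core subunit, had 595 and 1600 CPM on day 12 and 5650 and 5771 CPM in young adults (-2.38 ± 0.50, adjusted p = 0.048). Neither call held with the length trend removed (adjusted p = 0.1 and 0.114). The summed level of the list was 3772 and 5073 CPM on day 12, against 18545 and 18955 CPM in young adults. Of 51 ubiquitin conjugation genes 1 was higher (0.603% of all tested genes were) and 0 lower. It was skr-7, a relative of the ubiquitin ligase adaptor Skp1, with 862 and 669 CPM on day 12 and no read in young adults, at least 623-fold higher (adjusted p = 0.0192, or 0.0275 with the trend removed). Its close relatives skr-8 and skr-9 had 110 and 13.1 CPM and 146 and 5.63 CPM on day 12 and no young adult read, and reads of such copies may be split uncertainly.

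Enzymes of energy metabolism held 4 called genes, all lower, where 0.949% of all tested genes were lower. A single call in glycolysis or in oxidative phosphorylation does not set those lists apart from that share. dlst-1 (chromosome V, 6707056 to 6709101, minus strand), a subunit of the oxoglutarate dehydrogenase complex of the citrate cycle, had 0 and 1.25 CPM on day 12 and 814 and 1061 CPM in young adults (-10.04 ± 1.12, adjusted p = 0.00637, or 0.0116 with the length trend removed). cts-1, citrate synthase, stood at 20.8 and 57.5 CPM on day 12 and at 618 and 774 CPM in young adults (-4.13 ± 0.76, adjusted p = 0.0343). These were 2 of 29 citrate cycle genes. In glycolysis 1 of 22 passed, enol-1, or enolase, with 47.6 and 193 CPM on day 12 and 1323 and 1114 CPM in young adults (-3.33 ± 0.67, adjusted p = 0.0442). In oxidative phosphorylation 1 of 46 passed, ucr-2.1, a core protein of complex III, with 11.9 and 22.5 CPM on day 12 and 174 and 283 CPM in young adults (-3.71 ± 0.78, adjusted p = 0.0497). With the trend removed the last 3 lost their calls (adjusted p = 0.214, 0.242 and 0.206).

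The respiratory list as a whole did not move one way: its summed level was 10065 CPM in day 12 replicate 1 and 29724 CPM in replicate 2, on either side of the 19634 and 21550 CPM of young adults. Mitochondrial ribosomal protein genes had 0 called members of 66, where 1.55% of all tested genes were called. Their summed level was 3638 and 8893 CPM on day 12 and 10135 and 11684 CPM in young adults. The lipid carriers far-1 and far-2, which bind fatty acids and retinol, were both lower. far-1 had 2181 and 2818 CPM on day 12 and 12925 and 14464 CPM in young adults (-2.45 ± 0.37, adjusted p = 0.0167, or 0.0455 with the length trend removed). far-2 had 3540 and 5320 CPM on day 12 and 23388 and 23892 CPM in young adults (-2.42 ± 0.44, adjusted p = 0.0342, or 0.0547 with the trend removed). Their spliced lengths, 653 and 612 nt, fall in a class with a median log2 fold change of -0.13. Their list had no other called member of 9, where 0.949% of all tested genes were lower.

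**Figure D3:**
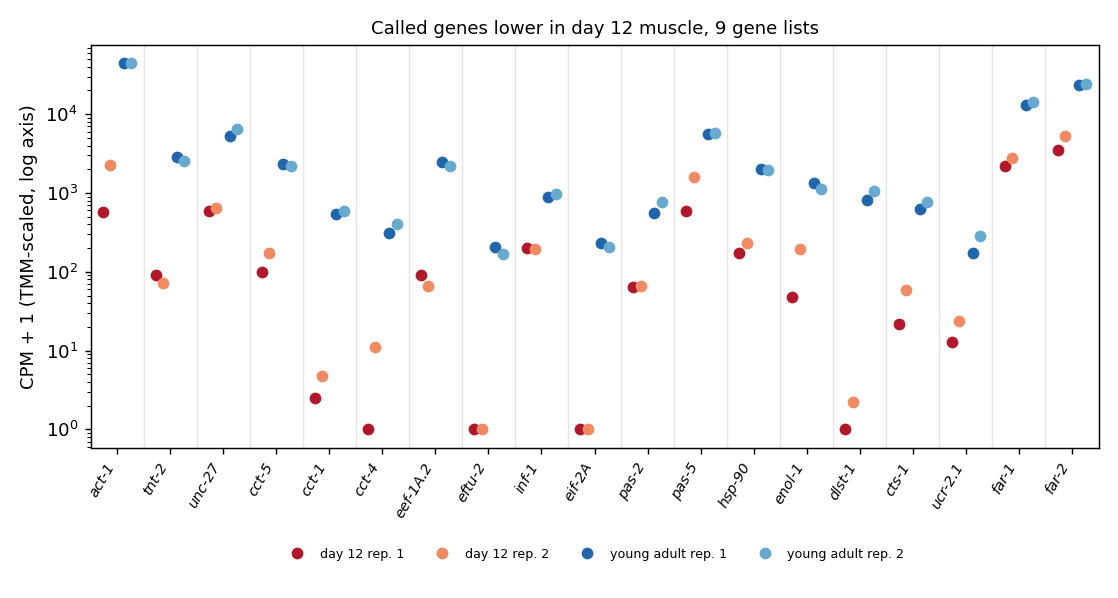
CPM + 1 (vertical log axis) of the 19 called genes that were lower on day 12 in 9 gene lists, with each day 12 and young adult library as a point. In every gene drawn both day 12 points lie below both young adult points, and eftu-2 and eif-2A have no day 12 read.

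The 10 largest decreases by fitted log2 fold change were in genes with no day 12 read. They were taken from called genes with a symbol and at least 5 mean log2 CPM in young adults. For unread genes the fitted value depends on a prior count, so the order is not one of measured folds. dlst-1, given above, had day 12 levels under the 4.46 and 1.88 CPM that 3 counts stand for in replicates 1 and 2. Its fold is therefore not ranked against these bounds. sap-49, a splicing factor subunit, had 246 and 206 CPM in young adults (at least 171-fold lower), arx-2, a subunit of the actin-nucleating Arp2/3 complex, had 167 and 179 CPM (at least 131-fold lower), and usip-1 had 140 and 149 CPM (at least 110-fold lower). eftu-2 is given above. ekl-1, arrd-13, riok-2, vrk-1, ech-4 and npp-22, a nuclear pore membrane protein, completed the group, with bounds between 65.1 and 89. With the length trend removed, arx-2 kept its call (adjusted p = 0.0468) and the other 9 did not. Of 1242 genes with at least 100 reads in both young adult libraries, 67 had none in day 12 replicate 1, 52 none in replicate 2 and 11 none in both. Other lists had few lower calls. The splicing regulator rsp-3, an SR protein, had 66.9 and 147 CPM on day 12 and 1086 and 885 CPM in young adults (-3.20 ± 0.56, edgeR adjusted p = 0.0302). It was 1 lower call of 52 spliceosome genes, where 0.949% of all tested genes were lower. vha-2, a subunit of the proton pump of lysosomes, had 175 and 67.5 CPM on day 12 and 897 and 1008 CPM in young adults (adjusted p = 0.0406). laat-1, a lysosomal transporter of basic amino acids, had no day 12 read and 34.7 and 32.5 CPM in young adults. None of these 3 was called with the trend removed (adjusted p = 0.194, 0.109 and 0.0887).

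Further abundant genes outside the lists were lower and are named after their values were seen. The 14-3-3 genes ftt-2 and par-5, which encode adaptors for phosphorylated proteins, had 335 and 736 CPM and 613 and 738 CPM on day 12, against 8234 and 8314 CPM and 2658 and 2710 CPM in young adults. Their log2 fold changes were -3.95 ± 0.45 (adjusted p = 0.00637, or 0.0354 with the length trend removed) and -1.99 ± 0.33 (adjusted p = 0.024, or 0.294). lmn-1, the nuclear lamin, had 23.8 and 51.9 CPM on day 12 and 1089 and 870 CPM in young adults (-4.68 ± 0.88, adjusted p = 0.037, or 0.191). rack-1, a scaffold on the small ribosomal subunit, had 412 and 586 CPM on day 12 and 4139 and 3736 CPM in young adults (-2.98 ± 0.45, adjusted p = 0.0179, or 0.0954). In each of these genes both day 12 libraries lie well below both young adult ones.

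Several precursors of neuropeptides were higher on day 12. These small secreted peptides are known as signals of neurons, released from dense-core vesicles. Of 25 FMRFamide-like peptide genes 3 were higher (0.603% of all tested genes were) and 0 lower. At an unadjusted p under 0.05, 13 were higher, where 6.83% of all tested genes were. flp-24 (chromosome III, 725119 to 726155, plus strand) had 147 and 117 CPM on day 12 and no read in young adults, at least 107-fold higher (adjusted p = 0.00714, or 0.0134 with the length trend removed). flp-26 had 61 and 64.4 CPM on day 12 and no young adult read, at least 51-fold higher (adjusted p = 0.0192, or 0.0449). flp-28 had 11.9 and 30 CPM on day 12 and no young adult read, at least 17-fold higher (adjusted p = 0.024, or 0.0686). In number of genes read, 15 and 13 members had a read on day 12 and 3 and 5 in young adults, although the young adult libraries held more reads in all than day 12 replicate 1.

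Of 58 neuropeptide-like protein genes 4 were higher, 0 lower, and 29 higher at an unadjusted p under 0.05. Of all tested genes 0.603% were called higher and 6.83% were higher at that unadjusted level. nlp-55 (F14F11.2 in the table) had 56.5 and 40.6 CPM on day 12 and no young adult read, at least 39.5-fold higher (adjusted p = 0.0101, or 0.0319 with the length trend removed). nlp-79 (F09E8.8) had 61 and 87.5 CPM and no young adult read, at least 60.4-fold higher (adjusted p = 0.0196, or 0.0582). nlp-49 (H05L03.3) had 34.2 and 189 CPM and no young adult read, at least 90.6-fold higher (adjusted p = 0.0342, or 0.0686). nlp-61 (F26A10.1) had 111.5 and 119.4 CPM on day 12 and 0 and 1.2 CPM in young adults (7.10 ± 1.46, adjusted p = 0.0469, or 0.0534). nlp-20 did not pass, with 1433 and 2637 CPM on day 12 and 2765 and 2759 CPM in young adults (-0.44 ± 0.29, adjusted p = 0.379). Of the 65 members in the table, 36 and 31 had a read on day 12 and 12 and 10 in young adults.

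Insulin-like peptides, ligands of the DAF-2 receptor, gave 1 call of 11, where 0.603% of all tested genes were called higher. ins-10 had 44.6 and 23.1 CPM on day 12 and no young adult read, at least 27.5-fold higher (adjusted p = 0.0446, or 0.109 with the length trend removed). ins-34, with 187 and 57.5 CPM, and daf-28, with 29.7 and 38.1 CPM, also had no young adult read and did not pass (adjusted p = 0.0692 and 0.0944). ins-7 and ins-35 were read in day 12 replicate 1 alone, at 174 and 162 CPM. The medians of the FMRFamide-like, neuropeptide-like and insulin-like lists were 7.82, 7.497 and 8.90 as fitted, which depends on a prior count for unread genes, and 3.82, 4.23 and 4.78 with bounds, where that of all genes was -0.37.

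No other neuronal list had a gene called higher. Summed over the neuron markers fixed for the check, the level was 98.1 and 54.4 CPM on day 12 and 90 and 117 CPM in young adults over 11 of 15 markers listed in the table. No read was listed for eat-4, ida-1, rgef-1, unc-17, unc-25, unc-31 and unc-119, and those absent from the table could not show one. Of 9 neuropeptide processing genes 0 were called, where 1.55% of all tested genes were. Of 25 pan-neuronal and synaptic genes 1 was lower (0.949% of all tested genes were), the tubulin gene tba-1. Peptide precursors are short, with median spliced lengths of 644, 533 and 432 nt in the 3 lists. Genes of up to 500 nt had a median log2 fold change of 1.17 and those of over 500 and up to 1000 nt one of -0.13, and the part of length in the peptide calls was tested only through the trend removal given above.

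**Figure D4:**
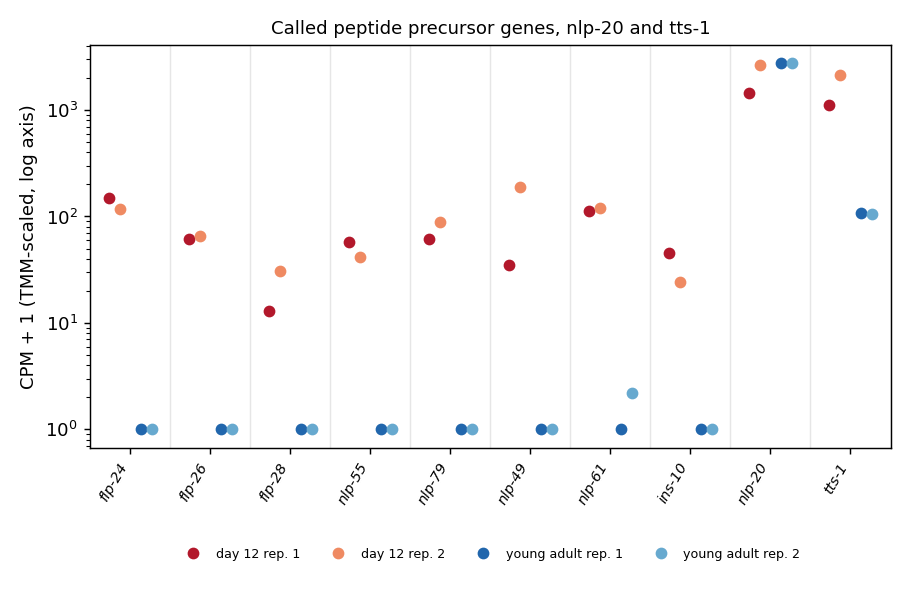
CPM + 1 (vertical log axis) of the 8 called peptide precursor genes, of nlp-20 and of the noncoding RNA gene tts-1, with each day 12 and young adult library as a point. The called precursors have at most 1 young adult library with a read, and nlp-20 lies at 1433 and 2637 CPM on day 12 beside 2765 and 2759 CPM in young adults.

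tts-1 (chromosome X, 1504131 to 1504841, minus strand), a long noncoding RNA known from dauer larvae and long-lived mutants, was the called gene of the insulin and dauer list of 21, where 0.603% of all tested genes were called higher. It had 1124 and 2127 CPM on day 12 and 107.98 and 105.3 CPM in young adults (3.93 ± 0.47, adjusted p = 0.00656, or 0.0319 with the length trend removed). Among the other largest changes, kbp-4 (chromosome III, 1080901 to 1081300, plus strand), named for binding the kinetochore protein KNL-1, had 1610 and 1406 CPM on day 12 and 2.57 and 4.21 CPM in young adults (8.71 ± 0.91, adjusted p = 0.00637, or 0.0258). ceh-43, a homeobox gene, had 149 and 117 CPM on day 12 and no young adult read, at least 107.95-fold higher (adjusted p = 0.0343, or 0.0449). exc-9, a LIM domain protein of the excretory canal, had 604 and 496 CPM on day 12 and 0 and 15.7 CPM in young adults (6.02 ± 1.21, adjusted p = 0.0443, or 0.0846). cal-8, a calmodulin-like gene, had 95.2 and 25.6 CPM on day 12 and no young adult read (adjusted p = 0.0446, lost with the trend removed at 0.0779). cav-1 and cex-1, named after their values were seen, encode caveolin and a calexcitin-like calcium-binding protein. cav-1 had 882 and 323 CPM on day 12 and 18 and 9.63 CPM in young adults (5.46 ± 0.91, adjusted p = 0.0244, or 0.0449), and cex-1 had 2825 and 1823 CPM against 138 and 90.3 CPM (4.35 ± 0.84, adjusted p = 0.039, or 0.0862).

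As sets, the genes called higher and lower also differ in what the test did not use. The median spliced length was 459.5 nt for the 54 higher genes, 1339 nt for the 85 lower ones and 1308 nt for all read genes. Genes annotated in operons made up 1.85% of the higher and 18.8% of the lower set, where 21.4% of all read genes are in operons. On the X chromosome lay 22.2% of the higher and 9.41% of the lower genes, beside 13.7% of all read genes. Only 16 of the 54 higher genes have a symbol in the table, against 67 of the 85 lower ones.

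A pair of lysosomal proteases was higher on day 12. Of 60 lysosome and autophagy genes 2 were higher and 2 lower, where 0.603% and 0.949% of all tested genes were. The higher ones were the cathepsin genes asp-1, with 62.4 and 18.8 CPM, and cpz-1, with 59.5 and 66.3 CPM, neither read in young adults and neither called with the length trend removed (adjusted p = 0.0686 each). asp-1, an intestinal aspartyl protease, is the one intestine marker of 10 with a read. Only 5 of the 10 are in the table, and those absent from it could not show a read. None was listed for the other 9, elt-2, ges-1, vit-2, vit-5 and vit-6 among them. The wider intestinal list summed to 816 and 45.6 CPM on day 12 and to 21.9 and 26.5 CPM in young adults. Whether intestinal RNA contributed was not tested.

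Innate immunity genes, lysozymes and saposin-like proteins among them, had 0 called members of 30 (1.55% of all tested genes were called). Those of smallest p were high in replicate 1 and low in replicate 2: spp-9 had 395 and 67.5 CPM, lys-7 had 446 and 23.8 CPM, and spp-3 had 1276 and 16.9 CPM on day 12. In young adults spp-9 and lys-7 had no read and spp-3 had 5.14 and 0.602 CPM. Their edgeR adjusted p-values were 0.057, 0.0719 and 0.0954. The list's summed level was 6274 and 2713 CPM on day 12 and 2110 and 2558 CPM in young adults, so that replicate 2 was close to the young adults. Transthyretin-related genes, a nematode family of small secreted proteins, had 0 called members of 27, with a summed level of 20924 and 20751 CPM on day 12 and 8310 and 9860 CPM in young adults. ttr-17 stood at 6438 and 12594 CPM on day 12 and at 2324 and 2573 CPM in young adults (1.96 ± 0.51, adjusted p = 0.0859).

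Lists of other tissues had no called member beyond asp-1, where 1.55% of all tested genes were called. There were 0 calls in 35 cuticle collagen, 44 germline and oocyte, 5 sperm, 8 hypodermis, 4 pharynx and 3 glia and coelomocyte genes. The same held for 44 replication and cell cycle, 50 antioxidant, 14 basement membrane and 8 muscle transcription factor genes. The germline markers summed to 31.2 and 121 CPM on day 12 and to 109 and 149 CPM in young adults. Of the replication genes, rnr-2, a subunit of the ribonucleotide reductase that makes deoxynucleotides, had 714 and 255 CPM on day 12 and 19.3 and 87.3 CPM in young adults (adjusted p = 0.111), and tyms-1, thymidylate synthase, the enzyme that metabolites of fluorodeoxyuridine inhibit, had 121.9 and 14.4 CPM on day 12 and no young adult read (adjusted p = 0.07).

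**Figure D5:**
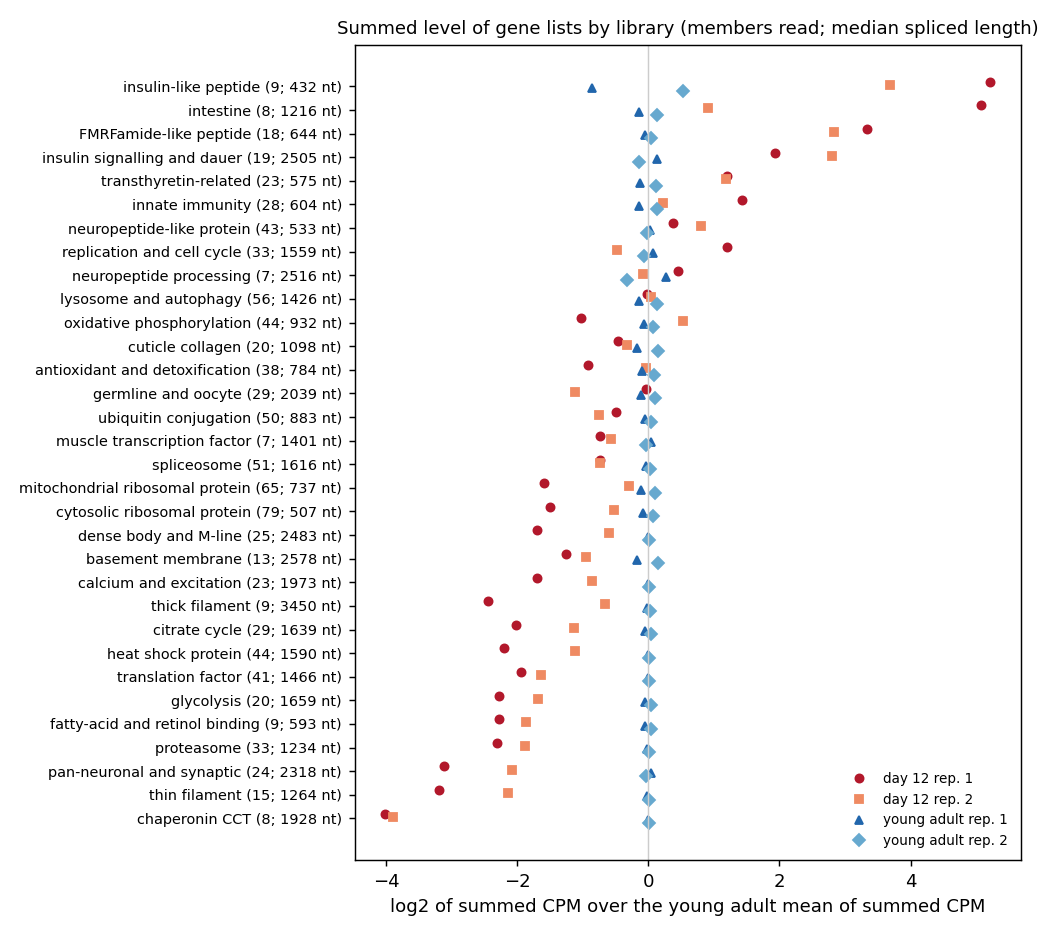
Log2 of the summed CPM of each library over the young adult mean (horizontal axis) for the 32 gene lists with at least 7 members read, with that number and the median spliced length beside the name. The 2 young adult libraries lie near 0 in nearly all lists, CCT and thin filament sums are lowest on day 12, and day 12 replicates 1 and 2 lie on different sides of 0 for oxidative phosphorylation.

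Each day 12 library was also set singly against the young adults, the lone library being assumed to vary like the other groups. That assumption does not hold, since the day 12 pair had a coefficient of variation of 1.59, against 1.09 in the shared fit. The spread of that pair does not enter these p-values, so the single-library calls are too liberal and only describe each library. Replicate 1 gave 227 calls of 8627 genes (2.63%), 79 higher (0.916%) and 148 lower (1.72%). Replicate 2 gave 167 of 8805 (1.9%), 58 higher (0.659%) and 109 lower (1.24%). Both comparisons use the same 2 young adult libraries. Of the 139 genes called together, 32 higher and 41 lower ones passed with each library alone, act-1 and eef-1A.2 among them. Ribosomal protein genes were lower in 29 cases with replicate 1 alone and in 12 with replicate 2 alone. CCT genes were lower in 3 cases with each, proteasome genes in 4 and 3, thin filament genes in 5 and 2, and citrate cycle genes in 4 and 1. Neuropeptide-like genes were higher in 7 and 5 cases, FMRFamide-like genes in 5 and 4, and innate immunity genes in 3 and 0.

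The genes that differed most between the day 12 replicates were listed without a test, as the 10 of the largest ratio each way among genes with a symbol and at least 500 CPM in a day 12 library. Higher in replicate 1 were the saposin-like genes spp-3, spp-5 and spp-14, the transthyretin-related genes ttr-2, ttr-45 and ttr-51, kbp-5, mfap-1, skr-10 and rla-0, a ribosomal stalk protein. spp-5 had 532 and 0 CPM, ttr-2 2792 and 46.9 CPM and rla-0 3955 and 1344 CPM in replicates 1 and 2. Higher in replicate 2 were hsp-12.1, a small heat shock protein, tct-1, the translationally controlled tumour protein, cyc-2.1, cytochrome c, rla-1, the synaptobrevin gene snb-1, tni-1, cey-1, efhd-1, dlc-2 and glrx-22. hsp-12.1 had 89.2 and 1268 CPM, tct-1 385 and 3801 CPM, rla-1 1381 and 9373 CPM and snb-1 155 and 1016 CPM in replicates 1 and 2. In young adults tct-1 had 8203 and 8520 CPM, rla-1 17906 and 18098 CPM and snb-1 4254 and 3626 CPM, so that replicate 2 was the nearer to them in these 3 genes.

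The age difference in muscle was tested against that in neurons, where the same tag was driven by the rgef-1 promoter and day 12 animals had likewise been given the drug. The difference between the 2 tissues passed in 72 of 8954 genes (0.804%), 18 positive (0.201%) and 54 negative (0.603%), while in neurons alone 2 genes (0.0223%) were called between the ages. Of the genes called in muscle, 14 of 54 higher and 23 of 85 lower ones were among the 72. For act-1 the log2 fold change was -4.98 in muscle and 0.19 in neurons, a difference of -5.17 ± 0.74 (adjusted p = 0.0225). eef-1A.2 stood at -4.92 in muscle and 0.18 in neurons, rpl-5 at -3.04 and 0.17, and tts-1 at 3.93 and 0.07, each with a difference that passed (adjusted p = 0.0225, 0.0318 and 0.0282). flp-24, flp-26, flp-28, nlp-55 and nlp-79, without reads in young adult muscle, had a positive difference that passed. It compares changes with age and not levels in the 2 tissues. For nlp-55 the neuron log2 fold change was itself -3.54. For kbp-4, at 8.71 in muscle and 6.88 in neurons, the difference did not pass (adjusted p = 0.941). Neuron libraries held 57104 to 282171 gene reads. Leaving out neuron day 12 replicate 1 or 2 gave 0 and 2 calls, neuron young adult replicate 1 or 2 gave 0 and 3, either muscle young adult library 0, and muscle day 12 replicate 1 or 2 gave 206 and 153.

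Which acceptor site of a gene the leader was joined to was tested for 382 trans-splice sites in 188 genes, those with at least 10 reads in 2 of the 4 libraries. None passed by edgeR's diffSpliceDGE (0%), and 22 sites had an unadjusted p under 0.05. On simulated counts over 340 sites, 35.6% of 45 changes were recovered, so real changes could be missed. ret-1, which encodes the endoplasmic reticulum protein reticulon, had the largest difference in share among the sites named: its downstream site (chromosome V, 14831621, minus strand in the coordinates of the authors' table) held 77.8 and 85.2% of 45 and 115 gene reads on day 12 and 2.8 and 2.46% of 464 and 1055 reads in young adults, with an adjusted p of 0.599. The ages do not overlap in this site, and ret-1 itself was lower on day 12 (-3.15 ± 0.57, adjusted p = 0.0316, or 0.435 with the length trend removed). A minor site of nlp-20 (chromosome IV, 7643077, minus strand) held 0 of 964 and 4219 reads on day 12 and 5.02 and 4.89% in young adults (adjusted p = 0.138). Sites of lea-1 (chromosome V, 10011873, plus strand), ubxn-6 (chromosome IV, 4809695, minus strand) and R05C11.4 (chromosome IV, 2051495, plus strand) likewise had no day 12 read and held between 14.5 and 34.8% in young adults. At these depths a count of 0 still allows 3 reads, so a small share on day 12 was not detectable in the genes with few reads. Sites did pass without day 12 replicate 1 or 2, but there the young adult pair alone measured the spread.

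The authors' deposited table of this comparison lists 8025 genes, 274 called up and 149 called down in ageing, with adjusted p-values of up to 0.187 among its calls. The up list in the authors' deposited table shares 41 genes with those called higher by edgeR, which is 15% of its up list and 75.9% of edgeR's. For lower genes the authors' deposited table shares 58, which is 38.9% of its down list and 68.2% of edgeR's. No gene is called in opposite directions by edgeR and the authors' deposited table.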

How the data were processed

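The 4 muscle libraries were compared through the deposited table of gene counts, whose values are whole reads per gene and equal the sum of the gene's trans-splice site reads in 99.99494% of gene and library pairs. Trimmomatic, TopHat2 and DESeq are named in the submitters' processing notes, with no role, and the genome build is not given in the sources used here. The deposited site table gives read counts per splice site by the authors. The authors' deposited RPM values differ from those counts by a single factor in each library, of unstated origin. The authors' deposited comparison table holds normalized signal as group means, a fold ratio of day 12 over young adult, p-values and a call per gene.

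Computed here: edgeR 4.0.16 (R 4.3.3) filterByExpr, TMM scaling and the quasi-likelihood F test in 1 fit of the 14 SL1-tag libraries with 8 group means, with Benjamini-Hochberg adjustment at 0.05. SE is the log2 fold change over the root of F. Coordinates and spliced lengths come from the WBcel235 annotation, matched by gene ID. At an exon start of that annotation lay 90.61% of the cis sites. Alternatives used DESeq2 1.42.0 and limma 3.58.1, limma with a pseudocount of 1 on RPM. On simulated counts for this comparison over 7853 genes, 16% of 100 genes changed by a log2 of 3 and 58% of 100 changed by a log2 of 6 were recovered, with 3 false calls. Genes are named by rule: myo-3, the 10 largest called changes each way with a symbol, up to 4 of smallest p per list, the 10 that differ most between day 12 replicates each way, and 6 genes for sites; others are marked as chosen after their values were seen. Members and lists were chosen with earlier results of these data known. In each of the count, RPM and site tables, 3 columns of per-sample values matched no sample and were not used.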

Additional observations from a re-analysis of the deposited data

Results flagged for a closer look

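The age difference in muscle differed from that in neurons, by a test of the difference itself, in 17 named genes. Each value is the muscle minus the neuron log2 fold change, with its SE and edgeR adjusted p. Fitted values of genes with no read in one age depend on a prior count and are no bound, and no explanation is weighed.

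Positive differences were found for peptide genes and tts-1. nlp-55 had 12.96 ± 1.24 (adjusted p = 0.0225), flp-24 11.34 ± 1.45 (0.0225) and nlp-79 10.23 ± 1.74 (0.0416). flp-26 had 9.23 ± 1.54 (adjusted p = 0.0433), flp-28 8.84 ± 1.50 (0.0416) and tts-1 3.86 ± 0.61 (0.0282).

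Negative differences were found for genes of translation and folding. rpl-5 had -3.21 ± 0.54 (adjusted p = 0.0318), rpl-1 -3.39 ± 0.50 (0.0229) and inf-1 -3.76 ± 0.62 (0.0318). cct-5 had -4.74 ± 0.72 (adjusted p = 0.0251), eef-1A.2 -5.10 ± 0.66 (0.0225) and daf-21 -6.24 ± 0.80 (0.0225). act-1 had -5.17 ± 0.74 (adjusted p = 0.0225), far-2 -5.90 ± 0.77 (0.0225) and dlst-1 -7.98 ± 1.33 (0.0318). ekl-1 had -10.98 ± 1.86 (adjusted p = 0.0416) and arx-2 -16.60 ± 2.25 (0.0225). In far-2, daf-21 and arx-2 the neuron log2 fold change was itself positive, at 3.49, 2.95 and 5.34.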

How the results depend on the processing

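The 139 calls (54 higher, 85 lower) became 876 (457, 419) with DESeq2's Wald test, 612 (311, 301) without a filter and 258 (146 higher) with at least 50 counts. They became 0 with the 4 libraries alone, 82 (55, 27) with the SL2 library added, 881 (300, 581) with limma on RPM and 660 (293, 367) with voom. With DESeq2 size factors 34 were lower, with cis reads added 132 lower, and with reads thinned to 1 depth 32 higher. Removing the length trend gave 56 (25, 31), and genes of 500 to 1500 nt alone gave 62 (41, 21). Leaving out 1 library gave 0 to 227 calls, 0 to 79 higher and 0 to 148 lower. The cause was not tested.

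Replicate numbers did not pair the libraries (correlation of same-numbered deviations 0.0156). The replicate block gave 167 calls, 87 of them higher, and 113 in place of 72 for muscle minus neurons. That test gave 0 to 206 without 1 library. Sites gave 1 call at 30 reads and 0 to 25 without 1 library.

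List medians minus that of all genes moved as follows. Ribosomal proteins, -0.45, came to -2.03 without the length trend, -1.28 at 500 to 1500 nt and -0.82 to 0.44 without 1 library, reversing to 0.44 without day 12 replicate 1. Without 1 library, translation factors spanned -2.05 to -0.95 and the proteasome -2.15 to -0.80, and the proteasome came to -2.14 at 500 to 1500 nt. CCT, -4.41, came to -4.25 with 50 counts, -3.08 with limma, -4.77 with cis reads, -4.67 thinned, -4.28 with voom, -3.18 without the trend and -5.03 to -3.94 without 1 library. FMRFamide-like genes, 8.43, came to 7.35 with Wald, 1.67 with limma, 4.56 with voom, 7.25 without the trend and 7.36 to 8.39 without 1 library. Neuropeptide-like genes, 8.10, came to 7.25, 2.02, 4.43 and 6.84 in the same order, 6.44 at 500 to 1500 nt and 7.86 to 8.82 without 1 library.

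Of the 52 called genes picked by the naming rule none reversed, and 16 kept the call without the length trend. In day 12 replicate 1, the shallowest library, 3 counts stand for 4.46 CPM, so lower levels were not detectable there.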
